A study of Homo sapiens with 12 samples.

Results

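The genes described here encode the protein parts of the spliceosome and the RNA-binding proteins that steer it. They were taken by symbol, as every gene whose probe sets on the array name it alone and whose symbol begins with SNRP, SNRNP, SF3A, SF3B, SRSF, HNRNP, PRPF or LSM, older spellings included. That gave 72 genes on 145 probe sets, out of 11963 genes named alone on the array. A filter on low signal kept 71 of them among the 8021 genes tested, and HNRNPA3P1, a pseudogene, fell below it. For genes with several probe sets, values are those of the brightest on average.

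The arrays measured total RNA from K562, a human line of chronic myeloid leukaemia that carries the BCR-ABL1 fusion kinase. Cells had 0.05 µM nilotinib, also called AMN107 (4 arrays), or 0.5 µM imatinib, also called STI571 (4 arrays), both of them inhibitors of that kinase. The control cells had DMSO, the solvent (4 arrays), and treatment lasted 24 h in all 3 groups. The labels call both drug doses IC50, and the doses differ 10-fold between the drugs, so a difference between nilotinib and imatinib arrays is one of drug and dose together. One cell line was used, and the labels leave unsaid whether the 4 arrays of a group are 4 cultures. The p-values therefore measure how these arrays vary among themselves, a spread that may be technical. The values are MAS5 signals on a linear scale that the authors scaled to a common level, and each signal below is in those units. Fold changes are differences of log2(signal + 16) between group means, which understate the change of dim genes.

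The spliceosome removes introns from pre-mRNA. It is built from small nuclear ribonucleoproteins (snRNPs), in which a U-rich RNA is wrapped by a ring of Sm proteins, or by the LSM2-8 ring in the case of U6, and carries further proteins of its own. U1 recognises the 5′ splice site, U2 the branch site, and the U4/U6.U5 tri-snRNP brings in the catalytic RNAs. SR proteins mostly favour the use of the exons they bind, hnRNP proteins often oppose it, and both kinds are abundant in dividing cells.

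Drug-treated arrays differed from DMSO arrays in measures that cover all genes. The median signal of all probe sets was 179 ± 12.1 with nilotinib, 142 ± 8.72 with imatinib and 119 ± 2.15 with DMSO (SD, n = 4 each). A probe set for 28S rRNA read 24015 ± 2137, 20453 ± 1241 and 5431 ± 135 in the same order of groups. The ratio of 3′ to 5′ actin signal, a sign of RNA integrity, lay between 1.82 and 5.49 with nilotinib, 2.04 and 5.24 with imatinib, and 2.66 and 3.34 with DMSO. It passed 3.5 on nilotinib arrays 1 and 2 and imatinib arrays 5 and 6. Without those 4 arrays, the splicing genes called lower and higher numbered 39 and 7 with nilotinib and 27 and 8 with imatinib, while those lower for nilotinib over imatinib numbered 15, against 25 with all arrays. Among all 8021 genes tested, 1835 and 2571 were then called with nilotinib and 1417 and 1651 with imatinib, and 307 were lower between the drugs. All 8 erythroid and megakaryocyte markers measured were above the filter, which the line is known to express, and their summed signal was 40889.5 to 44884 with nilotinib, 36545 to 41974 with imatinib and 17469 to 19486 with DMSO. Of the lymphocyte markers 5 of 6 measured passed the filter and summed to 695 to 1278, 428 to 875 and 608 to 773 in that order, of the granulocyte and monocyte markers 3 of 6 (2949 to 3925, 2945 to 3683 and 3629 to 4139), and of the fibroblast markers 2 of 5 (700.1 to 773, 324 to 622 and 308 to 566). MPO, ELANE and CD14 were below the filter. The part of these shifts in the results was not tested.

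Splicing genes were mostly lower in nilotinib-treated cells. In limma's test, at an adjusted p under 0.05 over all genes tested, 43 of 71 (60.6%) were called lower than in DMSO and 6 (8.45%) higher. Among all 8021 genes 58.2% were called, 23.5% lower and 34.7% higher. The median log2 fold change of the 71 genes was -0.33 with quartiles of -0.59 and -0.04, against a median of 0.15 over all genes with quartiles of -0.29 and 0.63. In 43 genes the 4 nilotinib and 4 DMSO arrays did not overlap, with nilotinib lower in 38 and higher in 5, where 50.7% of all genes did not overlap, 20.9% with nilotinib lower and 29.8% higher. A fall of at least 1 on the log2 scale was called in 9 splicing genes (12.7%), and in 5.42% of all genes. HNRNPUL2 had the highest log2 fold change of the 71, 0.67, so no splicing gene reached a rise of 1, which 11.6% of all genes were called at. In these bulk samples, less RNA per cell cannot be told apart from fewer cells that hold it.

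Imatinib gave a smaller count. Against DMSO, 26 of 71 splicing genes (36.6%) were called lower and 7 (9.86%) higher, where 39.4% of all genes were called, 17.3% lower and 22% higher. Their median log2 fold change was -0.13, with quartiles of -0.32 and 0.08, and that of all genes was 0.09, with quartiles of -0.21 and 0.40. Imatinib and DMSO arrays did not overlap in 31 splicing genes, 23 with imatinib lower and 8 with imatinib higher, where the shares of all genes were 39.1% in all, 17.6% lower and 21.5% higher. SNRPA1 and PRPF3 were the 2 genes (2.82%) called at least 1 lower on the log2 scale, against 2.77% of all genes. SRSF5 rose most, by 0.65, short of the rise of 1 at which 4.55% of all genes were called. Both comparisons use the same 4 DMSO arrays, so they are not independent of each other.

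Nilotinib arrays were also set directly against imatinib arrays, at the 10-fold lower dose. There 25 splicing genes (35.2%) were called lower with nilotinib and 1 (1.41%) higher, where 14% of all genes were called, 8.22% lower and 5.82% higher. The count of 25 was 13 under cyclic loess, 15 under quantile normalization, 15 without a variance trend, 15 without the 4 arrays of high actin ratio and 59 under median centring. Among all genes, 659 were called lower in the main fit, and 489, 632, 403, 307 and 2646 in these settings in the same order. The median log2 difference was -0.20 over the splicing genes and 0.05 over all genes. The groups did not overlap in 29 splicing genes, 28 with nilotinib lower, where 18% of all genes did so, 8.54% with nilotinib lower and 9.5% higher. Differences between the drugs ran from -0.99 (SRSF7) to 0.44 (HNRNPUL2) over the splicing genes, within the bounds of 1 that 0.249% of all genes were called below and 0.835% above.

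The size of these counts depends on how the arrays are scaled. Splicing genes are bright, with a median signal of 2199 against 479 over all genes tested. Among the 5700 genes above a stricter filter, at the 60th percentile, the median log2 fold change was 0.02 with nilotinib and 0.04 with imatinib. There 1742 were called lower and 1858 higher with nilotinib, and 1342 and 1522 with imatinib. Of the 68 splicing genes left, 43 and 5 were called with nilotinib (median -0.33) and 26 and 8 with imatinib (median -0.17). Quantile normalization brought the median of all genes to about 0, a shift of about 0.15 with nilotinib, and left 33 splicing genes lower and 10 higher with nilotinib and 21 and 11 with imatinib. Cyclic loess left 34 and 8 with nilotinib and 23 and 7 with imatinib. Centring each array on its median moved the median of all genes to -0.37 with nilotinib and -0.13 with imatinib, and then 61 and 0 splicing genes were called with nilotinib and 43 and 3 with imatinib. The calls among all genes moved too. Median centring called 3947 of 8021 lower and 831 higher with nilotinib, and 2276 and 820 with imatinib. Quantile normalization called 2076 and 1982 of 8022 with nilotinib, and 1337 and 1469 with imatinib. For cyclic loess these were 2081 and 2028 of 8021, and 1515 and 1528. Directions given for higher genes below are on the deposited scale, and those that turn under a scaling are named beside them. Counts by role below, on the deposited scale, stand against 23.5% of all genes called lower and 34.7% higher with nilotinib, and 17.3% and 22% with imatinib. Those under another scaling stand against the calls among all genes under that scaling.

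**Figure D1:**
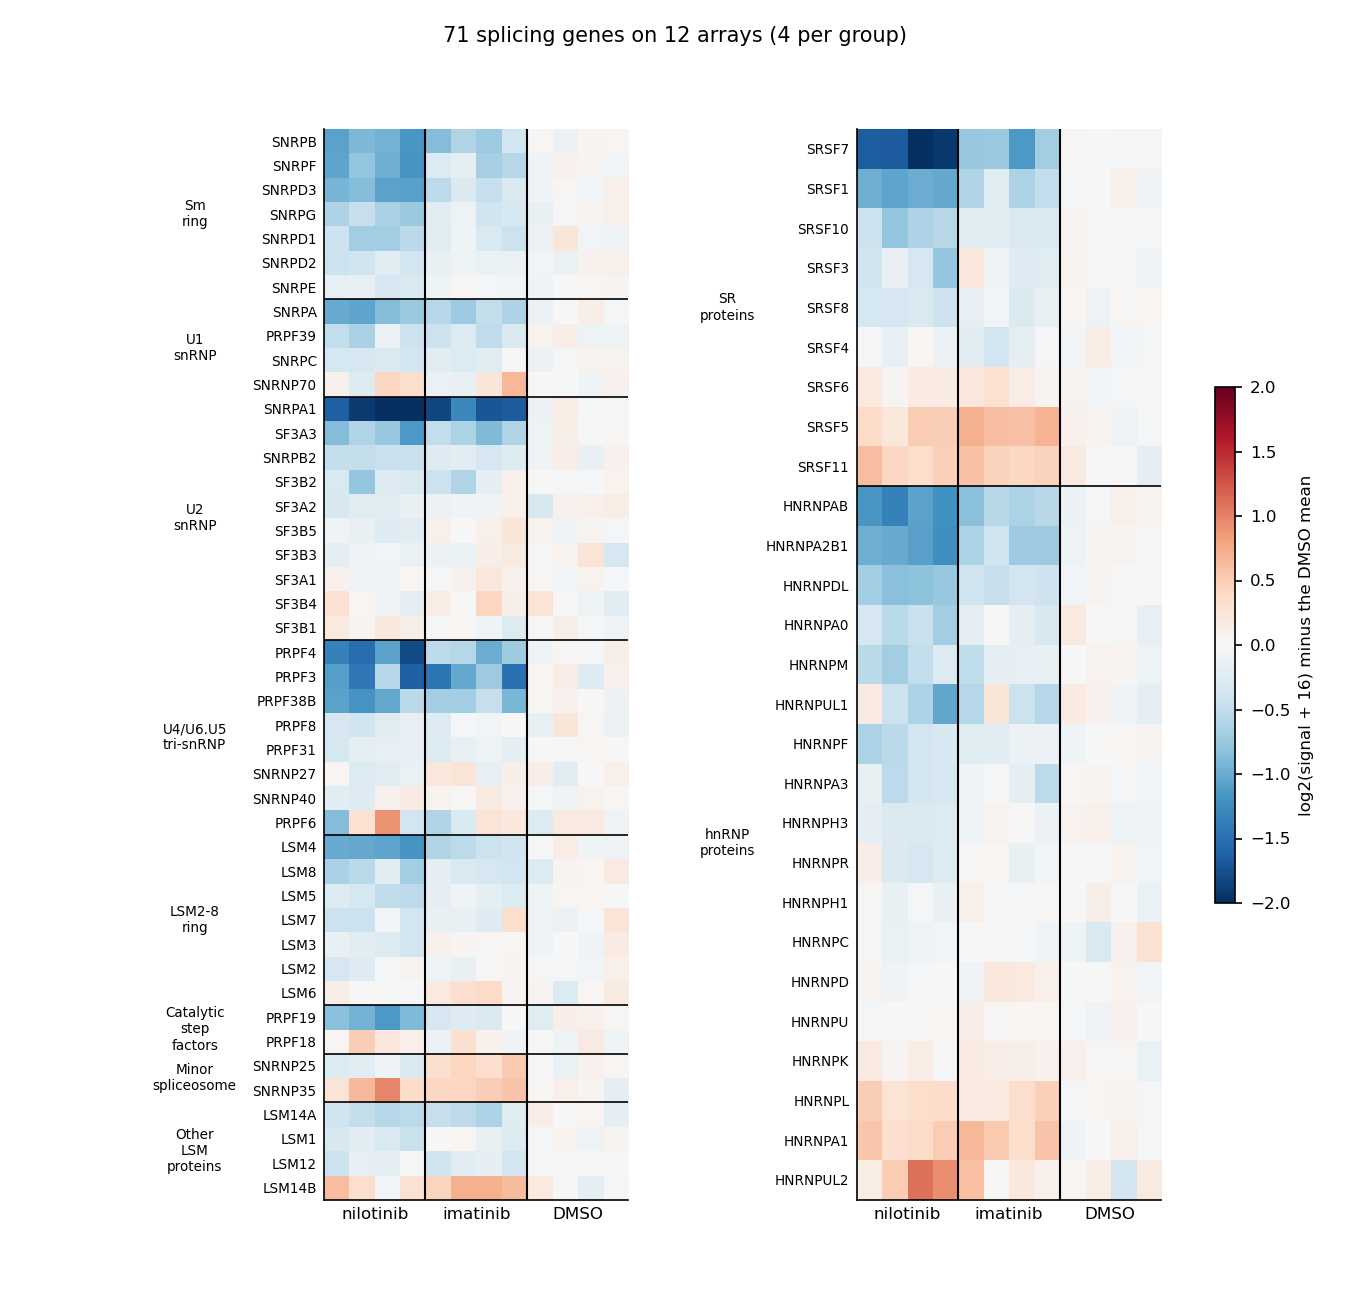
The 71 splicing genes (rows, ordered by role) on the 12 arrays (columns: nilotinib, imatinib, DMSO), coloured by log2(signal + 16) minus the gene's DMSO mean, blue below and red above. Most rows are blue on the nilotinib arrays and paler blue on the imatinib arrays, and SNRPA1, SRSF7 and PRPF4 are the deepest, with log2 fold changes with nilotinib of -1.89, -1.83 and -1.43.

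**Figure D2:**
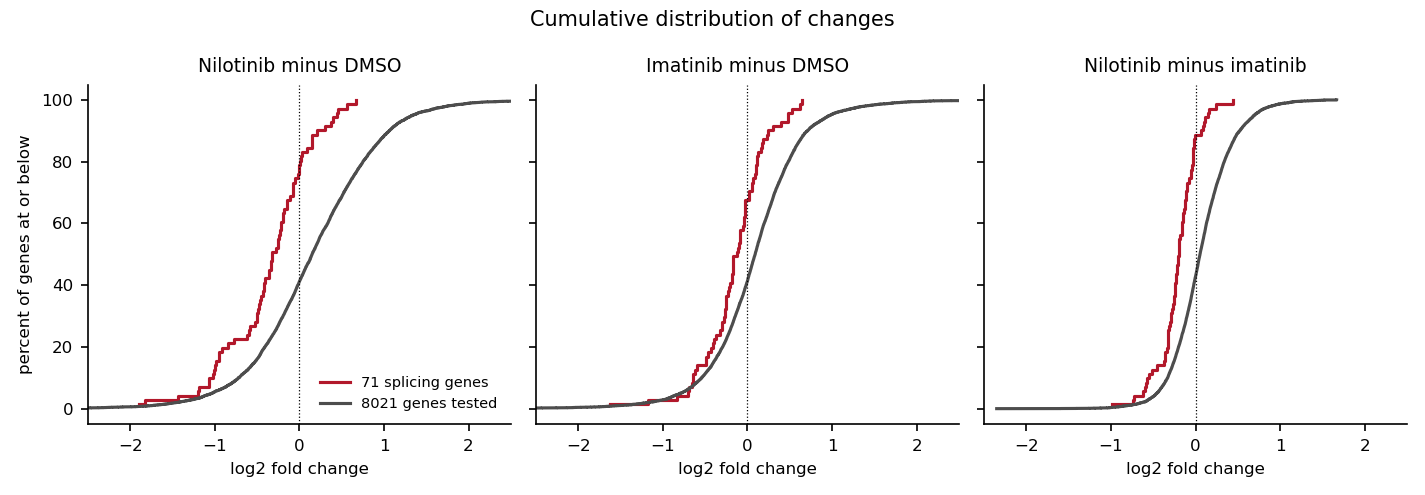
Cumulative percent of genes (y axis) against log2 fold change (x axis), for the 71 splicing genes and all 8021 genes tested, in 1 panel per comparison. The curve of the splicing genes lies to the left, with medians of -0.33 against 0.15 for nilotinib over DMSO, -0.13 against 0.09 for imatinib over DMSO, and -0.20 against 0.05 for nilotinib over imatinib.

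The Sm ring, which wraps the RNAs of U1, U2, U4 and U5, was lower throughout with nilotinib. All 7 of its tested genes (SNRPB, SNRPD1, SNRPD2, SNRPD3, SNRPE, SNRPF and SNRPG) were called lower, with a median log2 fold change of -0.62, and 5 of 7 were called lower with imatinib, with a median of -0.26. SNRPB, which encodes the B and B′ proteins of the ring, had signals of 1489, 1685, 1621 and 1387 on the nilotinib arrays, 1718, 2054, 1882 and 2401 on the imatinib arrays and 3199.8, 2886, 3257 and 3239.7 on the DMSO arrays. No array of either drug reached the lowest DMSO array. The log2 fold change was -1.02 ± 0.09 (SE, adjusted p = 2.74e-08) with nilotinib and -0.65 ± 0.09 (SE, adjusted p = 1.6e-05) with imatinib. SNRPD3, a ring protein that pairs with SNRPB, had 2348, 2443, 2131 and 2113 with nilotinib, 3109.8, 3657, 3257 and 3667 with imatinib and 4270.1, 4533, 4317 and 4838 with DMSO. The 3 groups did not overlap, nilotinib being lowest and DMSO highest. Its log2 fold change was -0.99 ± 0.07 (SE, adjusted p = 1.84e-09) with nilotinib and -0.39 (adjusted p = 0.000327) with imatinib, and nilotinib lay -0.60 ± 0.07 from imatinib on the log2 scale (SE, adjusted p = 5.66e-05).

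SNRPF, another ring subunit, gave 1825, 2191, 1912 and 1674 with nilotinib, 3135, 3295, 2389 and 2547 with imatinib and 3563, 4045, 3939.7 and 3655 with DMSO, again with no overlap between any 2 groups. Its log2 fold change was -1.0 ± 0.10 (SE, adjusted p = 9.27e-08) with nilotinib and -0.43 (adjusted p = 0.002) with imatinib. SNRPD1 read 5404, 4461, 4452 and 4937 with nilotinib, 6119.8, 6763, 5856 and 5373 with imatinib and 6672, 8550.1, 6913 and 6829.8 with DMSO. Nilotinib and DMSO arrays of SNRPD1 stayed apart, while 1 imatinib array exceeded the lowest DMSO array. The log2 fold change of SNRPD1 was -0.58 (adjusted p = 1.64e-05) with nilotinib and -0.26 (adjusted p = 0.0235) with imatinib, and the second call was lost without DMSO array 10, imatinib array 7 or imatinib array 8 (adjusted p up to 0.106) and under quantile scaling (0.0584). SNRPG averaged 5388 ± 439 with nilotinib, 6944 ± 626 with imatinib and 8266 ± 609 with DMSO (SD, n = 4 each), with log2 fold changes of -0.62 (adjusted p = 1.6e-06) and -0.25 (adjusted p = 0.0129). Leaving out imatinib array 7 took the imatinib p of SNRPG to 0.0555. SNRPE moved least within the ring, at 7921 ± 548 with nilotinib, 9121 ± 318 with imatinib and 9327 ± 361 with DMSO. Its log2 fold change of -0.24 (adjusted p = 0.00249) with nilotinib was called, and that of -0.03 (adjusted p = 0.713) with imatinib was not. Under quantile or cyclic loess scaling SNRPE lost its nilotinib call (adjusted p = 0.35 and 0.122), and the other 6 ring genes kept theirs. Between the drugs all 7 were called, but SNRPD1 not without imatinib array 6 or nilotinib array 2 or 3 (adjusted p up to 0.077), SNRPE not without imatinib array 6, 7 or 8 or nilotinib array 3 or 4 (up to 0.0907), and SNRPD2 not without imatinib array 6 or 8 or nilotinib array 1, 2 or 4 (up to 0.0621). Cyclic loess ended 4 of these 7 direct calls, for SNRPB (adjusted p = 0.0624), SNRPD1 (0.111), SNRPD2 (0.242) and SNRPE (0.341), and quantile scaling ended 3, for SNRPD1 (0.106), SNRPD2 (0.135) and SNRPE (0.202).

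Among the U1 proteins, 3 of 4 were called lower with nilotinib and 2 of 4 with imatinib. SNRPA, the A protein of U1, which binds a stem-loop of U1 RNA, had 1004, 970.0, 1112 and 1221 with nilotinib, 1368, 1226, 1464 and 1327 with imatinib and 1890.4, 2028, 2247 and 2020.2 with DMSO. Its groups did not overlap, and the log2 fold change was -0.92 ± 0.09 (SE, adjusted p = 5.86e-08) with nilotinib and -0.60 (adjusted p = 2.27e-05) with imatinib. Nilotinib lay -0.32 (adjusted p = 0.0229) from imatinib, a call lost without imatinib array 7 or nilotinib array 1 or 2 (adjusted p up to 0.0646) and under loess scaling (0.0931). PRPF39, a factor associated with U1, changed by -0.43 (adjusted p = 0.00438) with nilotinib and -0.37 (adjusted p = 0.0154) with imatinib, the second not called without DMSO array 10 or imatinib array 7 (adjusted p = 0.0536 and 0.0513). SNRPC, the C protein of U1, which steadies pairing with the 5′ splice site, was called with nilotinib at -0.34 (adjusted p = 0.000908) and not with imatinib at -0.17 (adjusted p = 0.0741). Quantile scaling ended the nilotinib call of SNRPC (adjusted p = 0.0658), and its imatinib value was called without DMSO array 9 or imatinib array 8 (0.047 and 0.0141). SNRNP70, the U1-70K protein, read 698, 545, 881 and 838 with nilotinib, 593, 589, 776 and 1047 with imatinib and 658, 646, 616 and 694 with DMSO. Its groups overlapped widely, and neither log2 fold change was called, at 0.15 (adjusted p = 0.433) and 0.16 (adjusted p = 0.481).

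The gene with the largest fall among all 71 was SNRPA1, which encodes the A′ protein of U2. Its signals were 2237, 1828, 1722 and 1703 on nilotinib arrays, 1954, 2844, 2114 and 2188 on imatinib arrays and 6429.8, 7701, 6964 and 6816 on DMSO arrays. Every drug-treated array was below every DMSO array by a wide margin, and the 2 drugs overlapped. The log2 fold change was -1.89 ± 0.11 (SE, adjusted p = 1.99e-11) with nilotinib, 0.27 of the DMSO level, and -1.62 ± 0.11 (SE, adjusted p = 3.48e-10) with imatinib, 0.32 of it. Nilotinib differed from imatinib by -0.27 on the log2 scale (95% interval -0.49 to -0.05, adjusted p = 0.0866), which was not called, though it was without imatinib array 5 or nilotinib array 1 (adjusted p = 0.0486 and 0.0283).

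Other U2 genes moved less. In all, 5 of 10 U2 genes were called lower with nilotinib and 3 of 10 with imatinib. SF3A3, part of the SF3a complex that joins U2 to the branch site, had 835, 998, 895 and 682 with nilotinib, 1083, 984, 821 and 1007 with imatinib and 1432, 1655, 1484 and 1560.1 with DMSO. Neither drug's arrays overlapped with DMSO, and the log2 fold change was -0.85 (adjusted p = 3.24e-06) with nilotinib and -0.65 (adjusted p = 0.000105) with imatinib. SNRPB2, the B″ protein that pairs with SNRPA1, changed by -0.46 (adjusted p = 2.87e-05) and -0.27 (adjusted p = 0.00583), the second lost under quantile scaling (adjusted p = 0.0584). SF3A1, another SF3a subunit, was at -0.02 (adjusted p = 0.872) with nilotinib and 0.10 (adjusted p = 0.398) with imatinib. Under quantile scaling, where the brightest probe set was chosen anew, its nilotinib value was 0.29 and called higher (adjusted p = 0.0251). SF3B1, the large SF3b subunit that clamps the branch site, read 6675, 6035, 6768 and 6356 with nilotinib, 5648, 5959, 5538 and 4811 with imatinib and 5921, 6290.0, 5712 and 5427 with DMSO. The log2 fold change of SF3B1 was 0.15 (adjusted p = 0.0847) with nilotinib and -0.09 (adjusted p = 0.334) with imatinib, neither called. As the mean of all its probe sets, its imatinib value was 0.29 and called higher (adjusted p = 0.0128). Such means, here and below, include probe sets under the signal filter. Between the drugs SF3B1 was the 1 splicing gene called higher with nilotinib, by 0.24 ± 0.07 (SE, adjusted p = 0.0332). That call was lost on leaving out any of imatinib arrays 7 and 8 and nilotinib arrays 1, 3 and 4 (adjusted p up to 0.105), and median centring turned the value to -0.06.

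Promoter sequence was looked at because many of these genes moved together. The 4 windows printed all hold the motif marked in them, which most splicing genes with a window lack. They are those of the largest faller, SNRPA1, of the Sm gene SNRPB, of SNRPB2, and of SRSF5, a gene that was higher with both drugs. RefSeq promoter windows on GRCh38.p14, 250 bases before and 50 after each annotated start, were found for 62 of the 71 genes, 16 of them with several windows. Capitals mark CCGGAAG or its reverse complement CTTCCGG, the core to which ETS-family factors such as GABPA are known to bind, and lower case is the rest of the 250 upstream bases, 5′ to 3′ on the gene's strand. SNRPA1 (chr15:101295249-101295498, minus strand) holds the letters from position -113 relative to the start, SNRPB (chr20:2470790-2471039, minus strand) from -41, SNRPB2 (chr20:16729776-16730025, plus strand) from -95 and -22, and SRSF5 (chr14:69766892-69767141, plus strand) from -57.
SNRPA1: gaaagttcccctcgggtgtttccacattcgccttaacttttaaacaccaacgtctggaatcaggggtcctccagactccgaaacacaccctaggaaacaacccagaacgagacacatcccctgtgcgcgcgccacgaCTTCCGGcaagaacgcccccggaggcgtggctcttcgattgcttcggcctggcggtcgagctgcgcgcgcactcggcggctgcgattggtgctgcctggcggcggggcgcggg
SNRPB: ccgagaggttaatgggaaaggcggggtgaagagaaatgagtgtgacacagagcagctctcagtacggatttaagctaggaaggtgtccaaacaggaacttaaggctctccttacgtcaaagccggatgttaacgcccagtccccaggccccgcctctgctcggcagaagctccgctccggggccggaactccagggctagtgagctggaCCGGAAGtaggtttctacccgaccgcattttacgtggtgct
SNRPB2: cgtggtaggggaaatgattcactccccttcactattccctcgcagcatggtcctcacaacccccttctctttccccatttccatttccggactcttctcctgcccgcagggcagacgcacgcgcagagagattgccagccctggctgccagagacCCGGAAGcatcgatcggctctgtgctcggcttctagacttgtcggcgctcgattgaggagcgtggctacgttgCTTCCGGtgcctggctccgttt
SRSF5: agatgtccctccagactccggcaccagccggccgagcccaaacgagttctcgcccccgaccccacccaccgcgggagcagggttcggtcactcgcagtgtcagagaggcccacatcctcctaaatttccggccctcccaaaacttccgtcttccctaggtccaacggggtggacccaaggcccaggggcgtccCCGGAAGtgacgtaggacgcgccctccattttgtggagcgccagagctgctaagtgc
Counted over the whole 300-base windows and on both strands, CCGGAAG stood in 21 of 62 splicing genes (33.9%), in 22.5% of the 6589 genes tested that have a window, and in 16.5% of 15843 protein-coding genes. For genes with 1 window only, the counts were 17 of 46 (37%) against 21.7% of 4628. Of the genes lower with nilotinib, 12 of 38 held it (31.6%), of those not called 8 of 20 (40%), and of those higher 1 of 4. It was absent from SRSF7, the gene with the next largest fall after SNRPA1, and from the Sm genes SNRPF and SNRPD3. SRSF11 and HNRNPL, higher with both drugs, lacked it too.

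The other 4 motifs, also searched on both strands, were the CCAAT box, the GC box, the E-box core that MYC with MAX is known to bind, and the TATA box. None of the 5 motifs contains another. The CCAAT box is read here as CCAAT alone and stood in 53.2% of splicing genes and 44.5% of genes tested, and in 60.5% of those lower with nilotinib against 40% of those not called. The GC box, read as GGGCGG, stood in 64.5% of splicing genes and 76.5% of genes tested, and in 55.3% of those lower against 80% of those not called. The E-box core, read as CACGTG, stood in 7 of 62 (11.3%), against 13.1% of genes tested. The TATA box, read as TATAAA, stood in 7 of 62 (11.3%), against 9.12%. These are descriptions of letters in windows, with no test.

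In the U4/U6.U5 tri-snRNP, 5 of 8 genes were called lower with nilotinib and 3 of 8 with imatinib. PRPF4, a U4/U6 protein, had 669.7, 597, 821 and 494 with nilotinib, 1202, 1173, 864 and 1063 with imatinib and 1643, 1763, 1687 and 1885 with DMSO. The 3 groups were fully apart in the order nilotinib, imatinib, DMSO, lowest to highest. In log2 terms the change was -1.43 ± 0.13 (SE, adjusted p = 2.27e-08) with nilotinib and -0.70 ± 0.13 (SE, adjusted p = 0.000251) with imatinib, and -0.73 (adjusted p = 0.00122) between nilotinib and imatinib. PRPF3, its partner in the U4/U6 snRNP, gave 211, 166, 313 and 142 with nilotinib, 162, 226, 281 and 159 with imatinib and 485, 522, 392 and 504 with DMSO. The drugs' arrays overlapped each other and not DMSO, and the log2 fold change was -1.18 ± 0.22 (SE, adjusted p = 0.000178) and -1.17 ± 0.22 (SE, adjusted p = 0.00032). Between the drugs PRPF3 differed by -0.01 (95% interval -0.48 to 0.45), an interval too wide to show equal response.

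PRPF38B, related to a tri-snRNP activation factor, read 277, 254, 287 and 408 with nilotinib, 361, 366, 428 and 311 with imatinib and 607, 638, 599 and 548 with DMSO. Both drugs lay wholly below DMSO, at -0.95 (adjusted p = 2.47e-05) and -0.69 (adjusted p = 0.00098). PRPF8, the large U5 protein at the catalytic centre, averaged 1302 ± 93.5 with nilotinib, 1497 ± 124 with imatinib and 1593 ± 206 with DMSO (SD, n = 4 each). Its log2 fold change was -0.28 (adjusted p = 0.0162) with nilotinib, a call lost without DMSO array 10 (adjusted p = 0.078) and under quantile and loess scaling (0.0693 and 0.125), and -0.08 (adjusted p = 0.516) with imatinib.

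The LSM2-8 ring, which caps the 3′ end of U6 RNA, had 5 of 7 genes lower with nilotinib and 3 of 7 with imatinib. Under quantile or cyclic loess scaling, 3 were lower with nilotinib, and 2 were lower and 1 higher with imatinib. LSM4 fell most, at 1157, 1147, 1122 and 1028 with nilotinib, 1550.1, 1629, 1740.2 and 1788 with imatinib and 2363, 2599, 2222 and 2237 with DMSO. Its groups did not overlap in any pairing on the probe set used, with log2 fold changes of -1.07 ± 0.08 (SE, adjusted p = 1.18e-09) for nilotinib over DMSO, -0.49 (adjusted p = 5.74e-05) for imatinib over DMSO and -0.58 (adjusted p = 0.000112) for nilotinib over imatinib. As the mean of its probe sets LSM4 was not called in any of the 3 comparisons (adjusted p = 0.0841, 0.341 and 0.62). That mean takes in probe sets below the signal filter, and every LSM4 probe set above the filter was called lower with nilotinib. LSM8, the subunit that sets the nuclear ring apart, averaged 3418 ± 505, 3971 ± 229 and 4927 ± 621 in nilotinib, imatinib and DMSO cells (SD, n = 4 each). LSM8 was called with both drugs, at -0.53 (adjusted p = 0.000153) and -0.30 (adjusted p = 0.0189), although arrays of each drug overlapped with DMSO, and the imatinib call was lost without DMSO array 12 or imatinib array 8 (adjusted p up to 0.0731). Without nilotinib array 3 the drugs also differed by the test (adjusted p = 0.0269). LSM3, a ring subunit, was called with nilotinib at -0.25 (adjusted p = 0.00589) and differed between the drugs by -0.30 (adjusted p = 0.00939), though both calls were lost under quantile and loess scaling. LSM6 was not called with either drug, at 0.03 (adjusted p = 0.797) and 0.24 (adjusted p = 0.0564), and median centring turned the first to -0.49. The imatinib value of LSM6 was called higher without DMSO array 12 or imatinib array 8 (adjusted p = 0.0254 and 0.0227) and under quantile and loess scaling.

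LSM1 takes the place of LSM8 in the cytoplasmic ring that helps to decap mRNA. It averaged 1666 ± 98.5 with nilotinib, 1956 ± 196 with imatinib and 2092 ± 119.7 with DMSO, and was called with nilotinib at -0.33 (adjusted p = 0.00225) and not with imatinib at -0.10 (adjusted p = 0.357). LSM14A, which acts in P-bodies, was lower with both drugs, at -0.49 (adjusted p = 0.00014) and -0.46 (adjusted p = 0.000403) on the log2 scale. LSM14B, its paralog, is dim here and read 224, 183, 135 and 178 with nilotinib, 196, 240.3, 239 and 228 with imatinib and 164, 141, 123 and 137 with DMSO. All imatinib arrays of LSM14B were above all DMSO arrays, and its log2 fold change was 0.31 (adjusted p = 0.195) with nilotinib and 0.62 ± 0.20 (SE, adjusted p = 0.0183) with imatinib. That call was lost without DMSO array 11 and under each of quantile, loess and median scaling (adjusted p = 0.136, 0.115 and 0.137).

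PRPF19 separated the drugs. It encodes the ubiquitin ligase of the Prp19 complex, which acts when the spliceosome becomes catalytic. Its signals were 659.6, 609, 527 and 640.4 with nilotinib, 935, 987, 969 and 1177 with imatinib and 1006, 1304, 1260.4 and 1210.2 with DMSO. Nilotinib arrays were below all others, while imatinib and DMSO arrays overlapped. On the log2 scale the change was -0.95 ± 0.11 (SE, adjusted p = 4.39e-07) with nilotinib and -0.23 (adjusted p = 0.1) with imatinib, and nilotinib was -0.72 ± 0.11 (SE, adjusted p = 0.000282) from imatinib. Leaving out DMSO array 9 or imatinib array 8 brought the imatinib difference under the threshold (adjusted p = 0.0372 and 0.0411).

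SNRNP25 was the 1 gene called in opposite directions with the 2 drugs. It encodes a protein of the U11/U12 snRNP, which serves the rare introns of the minor spliceosome. Its signals were 1739, 1803, 1991 and 1727 with nilotinib, 2643, 2826, 2660.1 and 3031 with imatinib and 2111, 1925, 2236 and 2162 with DMSO. Imatinib arrays stood above all others, and nilotinib arrays lay low but overlapped with DMSO. Its log2 differences were -0.21 ± 0.07 (SE, adjusted p = 0.0197) for nilotinib over DMSO, 0.40 ± 0.07 (SE, adjusted p = 0.000269) for imatinib over DMSO and -0.62 ± 0.07 (SE, adjusted p = 4.55e-05) for nilotinib over imatinib. The nilotinib call was lost without DMSO array 11 or nilotinib array 4 (adjusted p up to 0.0656) and under quantile and loess scaling (0.439 and 0.282), and the imatinib call was lost under median centring (0.162). SNRNP35, also of U11/U12, had 344, 457, 575 and 373 with nilotinib, 384, 389.6, 408 and 432 with imatinib and 289, 307, 298 and 247 with DMSO. All arrays of both drugs exceeded all DMSO arrays, at 0.57 (adjusted p = 0.00394) and 0.48 (adjusted p = 0.0173). Both calls of SNRNP35 were lost under quantile, loess and median scaling, where nilotinib gave 0.36, 0.36 and 0.04, and the imatinib call also without DMSO array 12 (adjusted p = 0.0571).

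**Figure D3:**
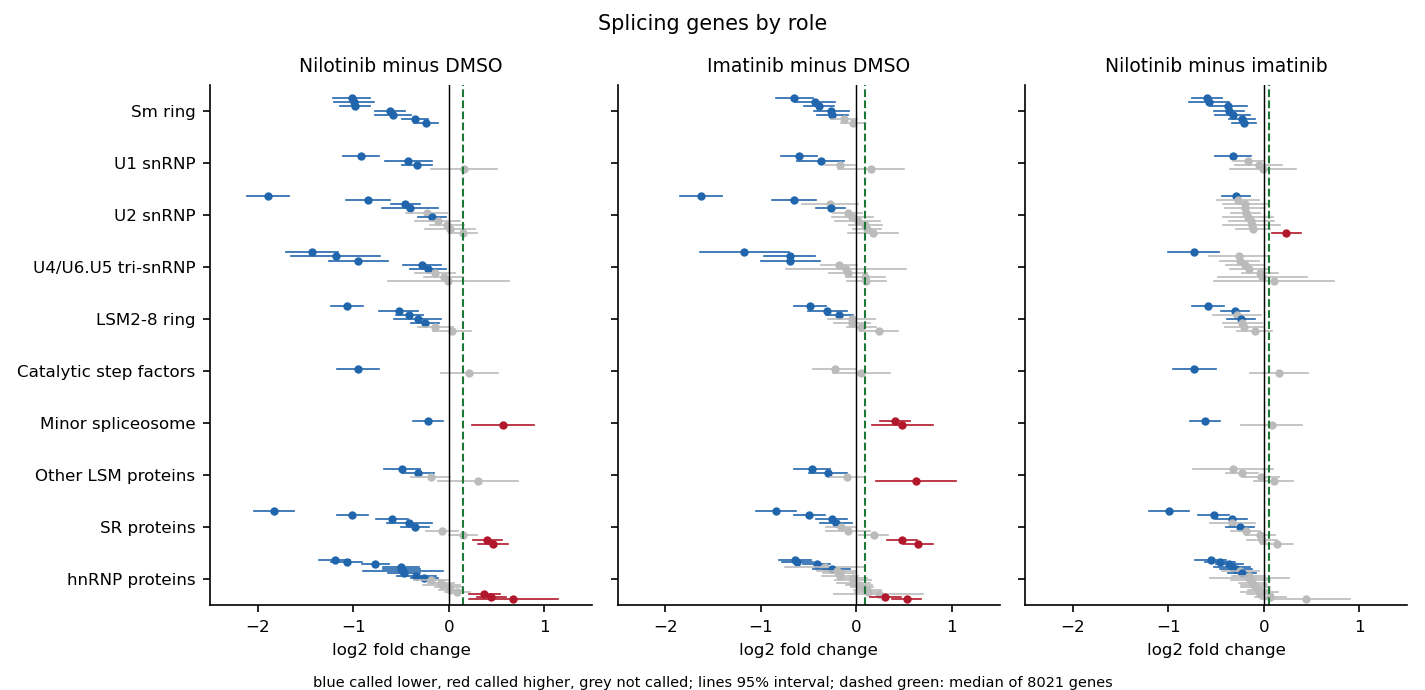
Log2 fold change (x axis) with its 95% interval for each of the 71 genes (rows, by role), in 1 panel per comparison; blue marks genes called lower, red higher and grey not called, and the dashed green line is the median of all 8021 genes. All 7 Sm ring genes are blue with nilotinib, and in the minor spliceosome row SNRNP25 is blue with nilotinib and red with imatinib; the red points of SRSF5, SRSF11, HNRNPA1 and HNRNPL with nilotinib are the ones that turn below 0 under median centring.

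SR proteins split in direction. With nilotinib 5 of 9 were called lower and 2 higher, and with imatinib 4 lower and 2 higher. SRSF7, which binds exonic enhancers and also links splicing to mRNA export, read 1895, 1881, 1417 and 1567 with nilotinib, 3524, 3597, 2698 and 3686 with imatinib and 6074, 5945, 5908 and 6068 with DMSO. The 3 groups lay far apart, and DMSO arrays differed little among themselves. Its log2 fold change was -1.83 ± 0.10 (SE, adjusted p = 1.63e-11) with nilotinib, -0.84 ± 0.10 (SE, adjusted p = 1.54e-06) with imatinib and -0.99 ± 0.10 (SE, adjusted p = 1.63e-05) for nilotinib over imatinib, the widest difference between the drugs among the 71 genes. These values are of 1 probe set, whose suffix marks probes shared with other transcripts. The other SRSF7 probe sets fell less with nilotinib, as given below, and not all were called. SRSF1, the founding SR protein, gave 2520.0, 2399, 2496 and 2456 with nilotinib, 3287, 4210.3, 3227 and 3546 with imatinib and 4855, 5032, 5389.5 and 4743 with DMSO. Its groups did not overlap, at -1.01 (adjusted p = 2.1e-09), -0.49 (adjusted p = 4.21e-05) and -0.52 (adjusted p = 0.000301) for the 3 comparisons in the same order. SRSF10, an SR protein that represses splicing when dephosphorylated, was lower with both drugs, at -0.59 (adjusted p = 3.85e-06) and -0.26 (adjusted p = 0.0136). SRSF3, the smallest of the SR proteins, averaged 7825 ± 1379 with nilotinib, 9804 ± 1613 with imatinib and 10322 ± 442 with DMSO (SD, n = 4 each), called at -0.42 (adjusted p = 0.00378) and not called at -0.09 (adjusted p = 0.574).

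SRSF5 and SRSF11 were higher with both drugs. SRSF5, an SR protein first described in regenerating rat liver, had 3683, 3301, 3996 and 3939 with nilotinib, 4600.1, 4302, 4215 and 4565 with imatinib and 2979.7, 2907, 2613 and 2755 with DMSO. Imatinib arrays of SRSF5 were the highest, nilotinib arrays next, and no 2 groups overlapped. Its log2 differences were 0.40 ± 0.07 (SE, adjusted p = 9.73e-05) for nilotinib over DMSO, 0.65 ± 0.07 (SE, adjusted p = 5.38e-07) for imatinib over DMSO and -0.25 (adjusted p = 0.0279) for nilotinib over imatinib. The last call was lost without imatinib array 5 or 8 or nilotinib array 2 (adjusted p up to 0.0866) and under quantile and loess scaling (0.195 and 0.182), and averaging the probe sets of SRSF5 turned that value to 0.06 (0.841). SRSF11, a divergent SR protein, read 7694, 6713, 6406 and 6990.0 with nilotinib, 7599.9, 6938, 6707 and 6899 with imatinib and 5714, 5008, 5056 and 4433 with DMSO. Both drugs lay above DMSO and over each other, at 0.46 (adjusted p = 4.7e-05) and 0.48 (adjusted p = 4.74e-05). Median centring turned the nilotinib values of both genes, to -0.12 for SRSF5 and -0.06 for SRSF11, and left the imatinib values above 0.

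**Figure D4:**
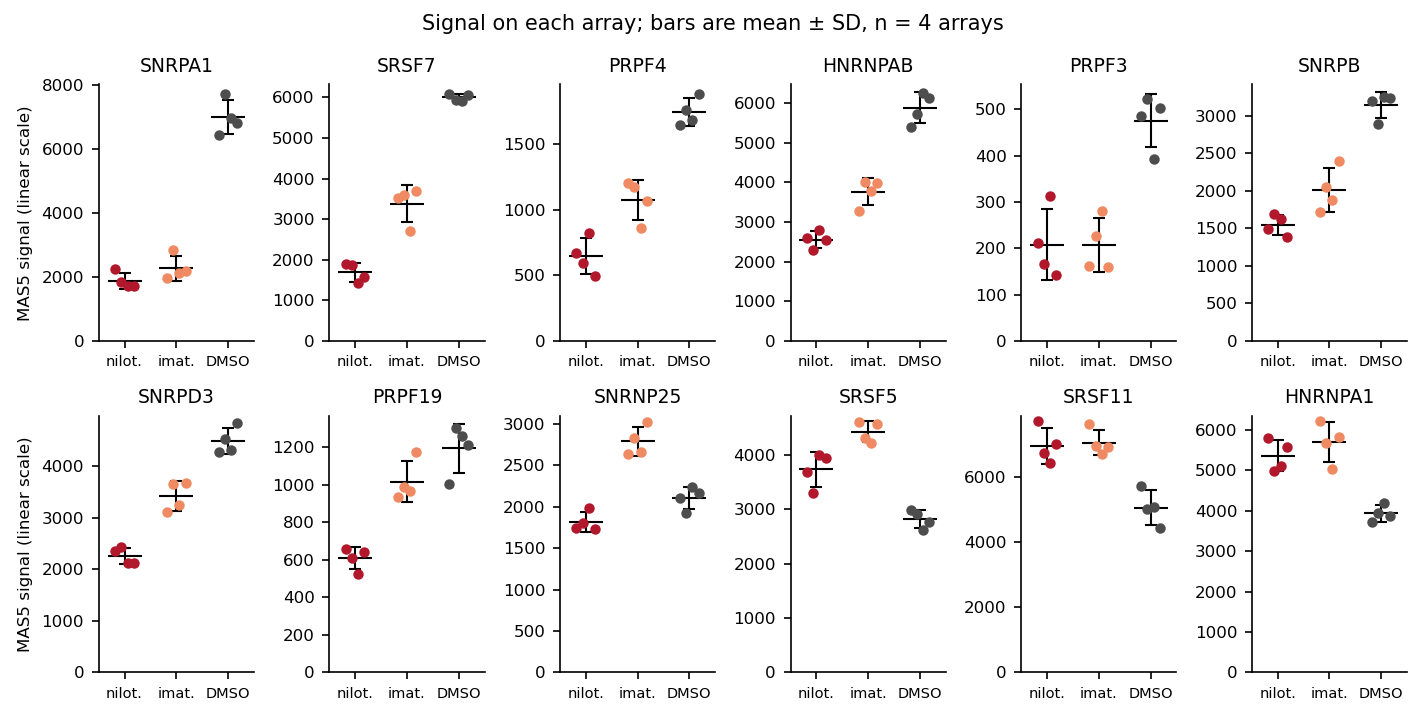
MAS5 signal (y axis, linear) of 12 splicing genes on each array, with nilotinib left, imatinib next and DMSO right, points for arrays and bars for mean ± SD (n = 4). SNRPA1 and PRPF3 are below DMSO with both drugs, whose arrays overlap each other, and SRSF7 and PRPF4 have 3 separate levels. PRPF19 is at 609 ± 58.7 with nilotinib, below the imatinib and DMSO arrays. SRSF5, SRSF11 and HNRNPA1 are above DMSO with both drugs on this scale, which for nilotinib turns under median centring.

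Of the 18 hnRNP genes, 9 were called lower and 3 higher with nilotinib, and 4 lower and 2 higher with imatinib. On the deposited scale, 23.5% of all genes were called lower and 34.7% higher with nilotinib, and 17.3% and 22% with imatinib. The hnRNP counts depended on scaling. Quantile normalization gave 6 lower and 5 higher with nilotinib, and 3 lower and 5 higher with imatinib. Cyclic loess gave 6 and 4 with nilotinib and 3 and 2 with imatinib, and median centring 15 and 0, and 9 and 1. Among all genes with nilotinib, quantile normalization called 2076 lower and 1982 higher of 8022, and loess 2081 and 2028 of 8021. Median centring called 3947 and 831 of 8021. With imatinib the pairs were 1337 and 1469, 1515 and 1528, and 2276 and 820 in the same order. HNRNPAB, a shuttling protein that binds AU-rich RNA, had 2603, 2292, 2793 and 2538 with nilotinib, 3279, 4012, 3793 and 3993 with imatinib and 5401, 5733, 6267 and 6120.0 with DMSO. No 2 groups overlapped, and the log2 fold change was -1.20 ± 0.08 (SE, adjusted p = 2.39e-10) with nilotinib, -0.64 (adjusted p = 2.32e-06) with imatinib and -0.56 (adjusted p = 0.000201) between them. HNRNPA2B1, one of the most abundant hnRNP proteins, gave 6304, 6140.1, 5853 and 5304 with nilotinib, 8015, 9448, 7513 and 7486 with imatinib and 11594, 12829, 12880.2 and 12331 with DMSO. Its groups were apart in the same order, at -1.07 ± 0.08 (SE, adjusted p = 6.63e-10), -0.62 (adjusted p = 2.27e-06) and -0.46 (adjusted p = 0.000813). HNRNPDL, a paralog of HNRNPD, was also lower with both drugs, at -0.77 (adjusted p = 1.26e-08) and -0.41 (adjusted p = 5.93e-05), on the probe set used.

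HNRNPA1, which often opposes SR proteins at exons, went the other way from its relative HNRNPA2B1. It read 5798, 4972, 5119 and 5568 with nilotinib, 6219, 5688, 5029.8 and 5831 with imatinib and 3718, 3944, 4202 and 3874 with DMSO. All drug-treated arrays exceeded all DMSO arrays, at 0.44 ± 0.07 (SE, adjusted p = 4.16e-05) and 0.53 ± 0.07 (SE, adjusted p = 9.29e-06), and median centring turned the nilotinib value to -0.08. The probe set carries the suffix that marks probes shared with other transcripts, and HNRNPA1 has several near-identical pseudogenes, so the signal may not be its own alone. Brighter probe sets that name HNRNPA1 with related genes moved less, at 0.22 and 0.18 with nilotinib and 0.15 and 0.11 with imatinib. Imatinib arrays overlapped with DMSO on both, and nilotinib arrays on the second. HNRNPL, which binds CA repeats, had 2665, 2299.6, 2417 and 2466 with nilotinib, 2138, 2184, 2422 and 2658 with imatinib and 1837, 1947, 1963 and 1848 with DMSO. Both drugs were above DMSO with no overlap, at 0.37 (adjusted p = 0.000505) and 0.30 (adjusted p = 0.00441), and under median centring the nilotinib value was -0.15. HNRNPUL2 was called higher with nilotinib at 0.67 (adjusted p = 0.0148), with overlap with DMSO, and lost that call under quantile, loess and median scaling (adjusted p = 0.28, 0.281 and 0.577) and without DMSO array 11 or nilotinib array 3 (0.0551 and 0.0605).

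HNRNPC and HNRNPK, abundant proteins that bind U-rich and C-rich RNA, had no called difference on the probe set used. HNRNPC averaged 6658 ± 177 with nilotinib, 6862 ± 219 with imatinib and 7104 ± 1289.6 with DMSO (SD, n = 4 each), and its nilotinib difference was -0.08 on the log2 scale (95% interval -0.27 to 0.11). A second probe set of HNRNPC was called lower with both drugs in the limma fit over all probe sets, at -0.31 (adjusted p = 0.000259) with nilotinib and -0.21 (adjusted p = 0.00885) with imatinib. It averaged 4910.2 ± 242 with nilotinib, 5255 ± 239 with imatinib and 6080.3 ± 118 with DMSO (SD, n = 4 each), with no overlap of either drug with DMSO. HNRNPK averaged 5774 ± 371, 5914 ± 162 and 5427 ± 354 in the same order, at 0.09 with nilotinib (95% interval -0.05 to 0.22), which median centring turned to -0.43.

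The 25 genes called lower with nilotinib than with imatinib, at different doses, were spread over the roles. They held 7 of 7 Sm ring genes, 3 of 7 of the LSM2-8 ring, 4 of 9 SR genes and 6 of 18 hnRNP genes, besides SNRPA, PRPF4, PRPF19, SF3B5 and SNRNP25. The 3 hnRNP genes HNRNPA0, HNRNPF and HNRNPH3 are RNA-binding proteins of which HNRNPF and HNRNPH3 bind G-rich runs. HNRNPA0 was at -0.50 (adjusted p = 0.000103) for nilotinib over DMSO, -0.17 (adjusted p = 0.141) for imatinib over DMSO and -0.33 (adjusted p = 0.0202) for nilotinib over imatinib. HNRNPF was at -0.47 (adjusted p = 7.37e-05), -0.18 (adjusted p = 0.0931) and -0.29 (adjusted p = 0.0228), and HNRNPH3 at -0.26 (adjusted p = 0.00385), -0.03 (adjusted p = 0.739) and -0.22 (adjusted p = 0.0381) in the same order. SF3B5, a small SF3b subunit, was at -0.18 (adjusted p = 0.0339), 0.11 (adjusted p = 0.214) and -0.29 (adjusted p = 0.00998). SNRPD2 of the Sm ring was at -0.36 (adjusted p = 0.000112), -0.13 (adjusted p = 0.121) and -0.23 (adjusted p = 0.0248). The direct calls of these 5 genes were lost under quantile and under cyclic loess scaling: the adjusted p of HNRNPF was 0.0517 and 0.112, of HNRNPA0 0.102 and 0.0899, of HNRNPH3 0.247 and 0.234, of SF3B5 0.0706 and 0.0751, and of SNRPD2 0.135 and 0.242. LSM3 (0.0662 and 0.0599), LSM5 (0.193 and 0.205), SNRPD1, SNRPE and SRSF5 lost theirs under both scalings too, and SNRPA and SNRPB under loess and not under quantile scaling. The direct call was also lost for HNRNPA0 without imatinib array 6 or nilotinib array 4 (adjusted p up to 0.0739), for HNRNPF without imatinib array 7 or 8 or nilotinib array 1 or 2 (up to 0.06), and for HNRNPH3 without imatinib array 6 or 7 or nilotinib array 2, 3 or 4 (up to 0.116). Against DMSO, the nilotinib call of SF3B5 was lost without DMSO array 9 or 11 or nilotinib array 3 or 4 (up to 0.0969) and under quantile and loess scaling (0.933 and 0.488), and that of HNRNPH3 under the same scalings (0.334 and 0.0948). PRPF8, SRSF3 and LSM1 were called with nilotinib against DMSO and not with imatinib, but their difference between the drugs was not called, at -0.20 (adjusted p = 0.163), -0.33 (adjusted p = 0.0556) and -0.23 (adjusted p = 0.0691), so a response to nilotinib alone is not shown. The direct difference was called for LSM1 without imatinib array 8 (adjusted p = 0.0325) and for SRSF3 without imatinib array 7 or nilotinib array 2 (0.0438 and 0.0225).

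Probe sets of the same gene did not always move alike. Of the 71 genes, 37 had at least 2 probe sets above the filter (100 probe sets in all), and these were tested together in a separate limma fit over all probe sets. With nilotinib, every probe set was called lower for 8 genes (LSM4, LSM5, PRPF4, SNRPA1, SNRPB, SNRPD1, SRSF10 and SRSF3), every one higher for 3 (HNRNPA1, HNRNPL and SRSF5), and 5 genes (HNRNPA3, HNRNPD, HNRNPDL, HNRNPM and SRSF8) had calls in both directions. The 3 probe sets of SNRPA1 gave log2 fold changes of -1.89, -1.11 and -1.96 with nilotinib and -1.62, -1.08 and -1.81 with imatinib. With nilotinib, SRSF7 had -1.83 on the probe set used and -0.84, -0.30 and -0.08 on the others. HNRNPD, the AUF1 protein that binds AU-rich elements, ranged furthest, with 1.16 on one probe set and -0.87 on another for nilotinib, and 0.65 and -0.54 for imatinib. HNRNPM, a regulator of alternative exons, had -0.50 and 0.79 with nilotinib. SRSF3 had, with nilotinib, -0.42 on the set used and -1.30 and -1.18 on the others. SRSF11 had, with nilotinib, 0.46 on the set used and 0.03 and -0.25 on the others, so its rise rests on 1 probe set. With all probe sets averaged per gene, those below the filter included, SRSF11, SNRPE and HNRNPDL were not called with nilotinib (adjusted p = 0.562, 0.0808 and 0.0978). PRPF4, SRSF1, HNRNPA0 and HNRNPH3 were then not called for nilotinib over imatinib (0.0551, 0.112, 0.107 and 0.41). Probe sets can measure different transcript ends or isoforms, and which of these applies was not tested.

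**Figure D5:**
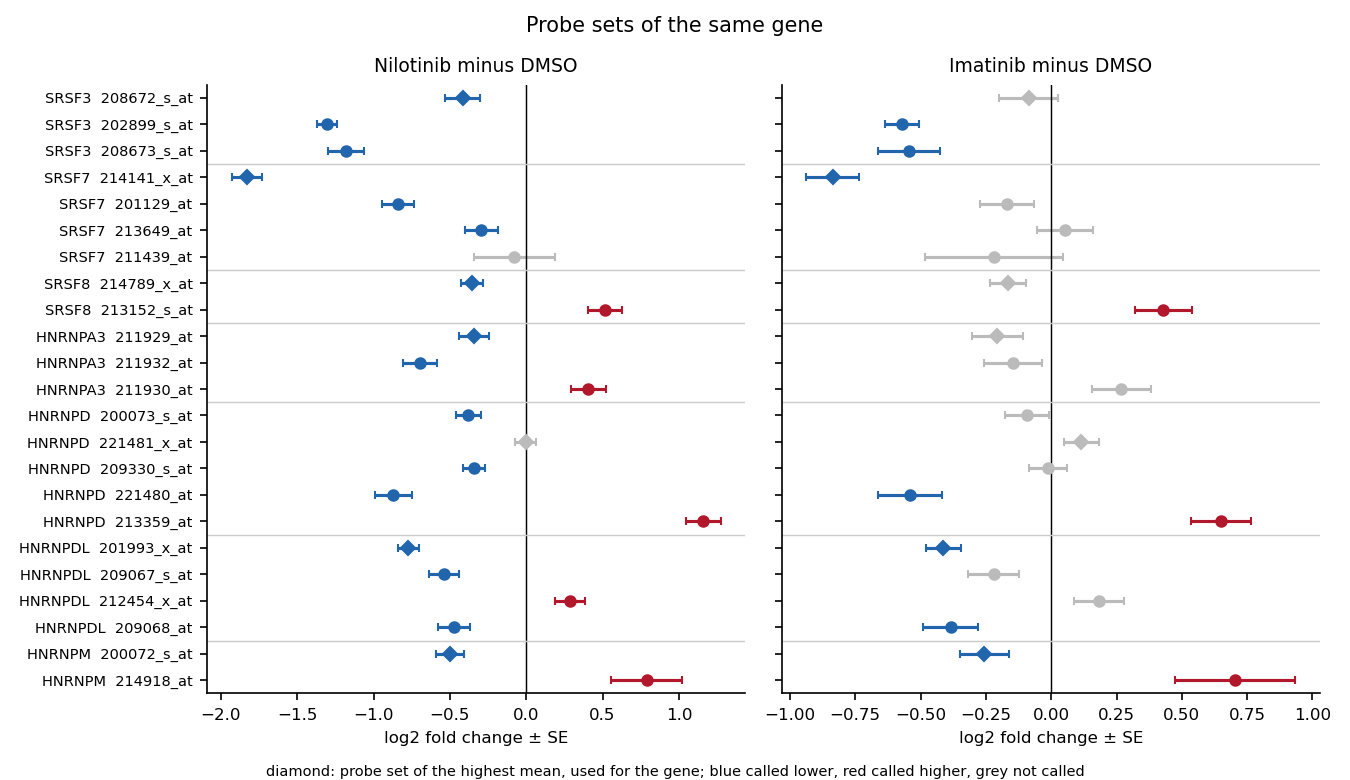
Log2 fold change ± SE (axis of values) of each tested probe set of SRSF3, SRSF7, SRSF8, HNRNPA3, HNRNPD, HNRNPDL and HNRNPM, for nilotinib over DMSO and imatinib over DMSO, with a diamond for the probe set used. Probe sets of HNRNPD lie on both sides of 0, at 1.16 and -0.87 with nilotinib, while those of SRSF3 all lie below it.

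SRSF2 and SNRNP200, well known in the pathway, have no probe set that names them alone and were not tested. SRSF2, an SR protein, shares its probe sets with MIR636, and the brightest read 4399 ± 75.4 with nilotinib, 5991 ± 385 with imatinib and 6296 ± 264 with DMSO (SD, n = 4 each). SNRNP200, the helicase that unwinds U4 from U6, read 3785 ± 153, 4123 ± 468 and 3951 ± 355 in the same order.

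Other genes of splicing were counted from lists outside the symbol rule. The counts below stand against 23.5% of all genes called lower and 34.7% higher with nilotinib, and 17.3% and 22% with imatinib. Of 12 tested U2 auxiliary and branch-site factors, 7 were lower and 1 higher with nilotinib, and 6 and 1 with imatinib. SMNDC1, a tudor protein of spliceosome assembly, was at -1.14 (adjusted p = 6.15e-08) and -0.72 (adjusted p = 3.33e-05), and DHX15, a helicase that takes spliceosomes apart, at -0.69 (adjusted p = 3.36e-07) and -0.45 (adjusted p = 8.95e-05). SF1, the branch-point binding protein, was at -0.85 (adjusted p = 6.28e-06) and -0.45 (adjusted p = 0.00511), but its probe sets differed in direction (0.09 and 0.19 as their mean, and 1.03 and 0.83, called higher, without the probe sets of shared suffix). ZRSR2, the 3′ splice site factor of minor introns, was the 1 higher, at 0.90 (adjusted p = 8.47e-05) and 0.45 (adjusted p = 0.0296). Of 10 U5 and tri-snRNP partners, 3 (30%) were lower and 2 (20%) higher with nilotinib, and 2 (20%) and 1 (10%) with imatinib, near or below the shares of all genes. They included PPIH, a U4/U6 cyclophilin, at -0.95 (adjusted p = 4.15e-09) and -0.56 (adjusted p = 8.67e-06), and USP39, needed to mature the tri-snRNP, at -0.50 (adjusted p = 0.00505) and -0.41 (adjusted p = 0.0236). TXNL4B, related to a U5 protein, was higher at 0.40 (adjusted p = 0.00714) and 0.48 (adjusted p = 0.00307), and SART1, a tri-snRNP protein, at 0.27 (adjusted p = 0.0475) with nilotinib and 0.29 (adjusted p = 0.0546), not called, with imatinib. Median centring turned the nilotinib values of these 2 to -0.12 and -0.25. The imatinib calls of ZRSR2 were lost without DMSO array 9 or 10 or imatinib array 7 or 8 (adjusted p up to 0.0903), and of USP39 without DMSO array 9, 10 or 11 or imatinib array 7 (up to 0.0789). SART1 lost its nilotinib call without any of DMSO arrays 9, 10 and 12, imatinib arrays 5 and 8 and nilotinib arrays 1, 2 and 4 (up to 0.139), and was called with imatinib without DMSO array 11 or imatinib array 6 (0.0381 and 0.0405).

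Of 15 Prp19-complex and catalytic genes, 4 (26.7%) were lower and 2 (13.3%) higher with nilotinib, and 2 (13.3%) and 1 (6.67%) with imatinib, the lower counts being near the shares of all genes. BUD31 was at -0.73 (adjusted p = 3.95e-07) and -0.40 (adjusted p = 0.000636), or, as the mean of its probe sets, at -0.09 (adjusted p = 0.763) and 0.06 (0.862), and BCAS2, a core Prp19-complex subunit, at -0.63 (adjusted p = 2.22e-05) and -0.38 (adjusted p = 0.00361). XAB2 was higher, at 1.25 (adjusted p = 9.57e-05) and 0.75 (adjusted p = 0.0107), and CDC40, a second-step factor, at 0.37 (adjusted p = 0.00304) with nilotinib, which median centring turned to -0.15. Of 16 exon junction complex and SR-related genes, 7 were lower and 4 higher with nilotinib, and 7 and 1 with imatinib. MAGOHB, an exon junction core protein, was at -1.25 (adjusted p = 0.000353) and -0.95 (adjusted p = 0.00537), and DDX39A, an export helicase, at -1.14 (adjusted p = 2.61e-09) and -0.77 (adjusted p = 1.01e-06). SRRM2, a large SR-related scaffold of nuclear speckles, was higher at 1.67 (adjusted p = 1.64e-07) and 1.35 (adjusted p = 4.47e-06), and ACIN1 at 0.50 (adjusted p = 0.0132) with nilotinib, which median centring turned to -0.02. With imatinib ACIN1 was called without imatinib array 6 (adjusted p = 0.0158).

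All 7 SR protein kinases on the list were tested. Without probe sets of shared suffix 0 kinases were called with either drug, a setting in which a gene may have no probe set left. CLK4, which phosphorylates SR proteins in the nucleus, averaged 925 ± 22.2 with nilotinib, 756 ± 42.3 with imatinib and 376 ± 42.2 with DMSO (SD, n = 4 each), at 1.27 (adjusted p = 4.4e-09) and 0.98 (adjusted p = 2.64e-07). CLK1, of the same family, averaged 1190.3 ± 96.5, 932 ± 107 and 574 ± 74.6 in the same order, at 1.04 (adjusted p = 2.29e-07) and 0.69 (adjusted p = 5.86e-05). CLK3 was also higher, at 0.97 (adjusted p = 0.000923) and 0.70 (adjusted p = 0.0146), and the second call was lost without DMSO array 12 or imatinib array 7 (adjusted p = 0.0612 and 0.0534). SRPK1, the cytoplasmic SR kinase, was lower at -0.77 (adjusted p = 1.11e-07) and -0.54 (adjusted p = 1.82e-05), and CLK2 at -0.43 (adjusted p = 0.0426) with nilotinib, a call lost without DMSO array 9, 10 or 11 or nilotinib array 2 or 3 (adjusted p up to 0.126). With imatinib CLK2 was called on leaving out imatinib array 7 (adjusted p = 0.00608).

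Of 13 snRNP assembly and import genes, 5 were lower and 1 higher with nilotinib, and 5 were lower with imatinib. GEMIN4 and GEMIN6, subunits of the SMN complex that loads Sm rings, were at -1.41 (adjusted p = 3.7e-05) and -1.14 (adjusted p = 2.04e-06) with nilotinib and -0.57 (adjusted p = 0.0548) and -0.50 (adjusted p = 0.00921) with imatinib. STRAP, which binds SMN, was at -0.61 (adjusted p = 3.06e-07) and -0.53 (adjusted p = 2.73e-06), and GEMIN7 was higher with nilotinib at 1.05 (adjusted p = 0.0406), a call lost without DMSO array 9 or 10 or nilotinib array 2 or 4 (adjusted p up to 0.16). The imatinib value of GEMIN4 was called without nilotinib array 2 or 3 (adjusted p = 0.00977 and 0.0262). Both tested minor spliceosome partners were higher with nilotinib, ARMC7 at 0.90 (adjusted p = 0.000258) and ZMAT5, a U11/U12 protein, at 0.68 (adjusted p = 0.0256), and ARMC7 with imatinib at 0.64 (adjusted p = 0.00723). The ZMAT5 call was lost without DMSO array 9 or 10 or nilotinib array 3 or 4 (adjusted p up to 0.0627) and under quantile, loess and median scaling (0.644, 0.609 and 0.626). Of 5 decapping partners of the LSM1-7 ring, 2 were higher with nilotinib, the helicase DDX6 at 1.39 (adjusted p = 0.000741) and EDC3 at 0.77 (adjusted p = 0.019), with 0.72 (adjusted p = 0.069) and 0.53 (adjusted p = 0.126) with imatinib, not called. EDC3 lost its nilotinib call without DMSO array 9 (adjusted p = 0.0576) and was called with imatinib without imatinib array 7 (0.0266).

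Of 31 other splicing regulators, 13 were lower and 8 higher with nilotinib, and 9 and 6 with imatinib. SFPQ, a paraspeckle protein, was at -1.11 (adjusted p = 9.34e-11) and -0.67 (adjusted p = 2.08e-07), and RBM3, a cold-inducible RNA-binding protein, at -0.93 (adjusted p = 5.2e-09) and -0.64 (adjusted p = 1.28e-06). Without probe sets whose suffix marks probes shared by several transcripts, SFPQ was called higher with nilotinib at 0.44 (adjusted p = 0.00604) and was at 0.10 with imatinib (0.589), and RBM3 was at 0.31 with nilotinib (0.422) and -0.28 with imatinib (0.539). CELF2 and MBNL1, which set tissue-specific exons, were lower at -0.92 (adjusted p = 5.67e-10) and -0.86 (adjusted p = 3.8e-07) with nilotinib and -0.72 (adjusted p = 3.05e-08) and -0.69 (adjusted p = 1.03e-05) with imatinib. TIA1, which helps U1 at weak splice sites, was higher at 1.00 (adjusted p = 2.14e-08) and 0.71 (adjusted p = 3.26e-06). RBM5 and RBM25, regulators of apoptotic gene splicing, were higher at 0.82 (adjusted p = 3.3e-06) and 0.74 (adjusted p = 3.43e-06) with nilotinib and 0.50 (adjusted p = 0.00104) and 0.56 (adjusted p = 0.000127) with imatinib. MYC, a transcription factor known to raise the expression of several splicing genes, averaged 2918 ± 127 with nilotinib, 4665 ± 792 with imatinib and 11063 ± 1058 with DMSO (SD, n = 4 each), at -1.91 (adjusted p = 4.9e-12) and -1.25 (adjusted p = 3.75e-09). Its part in the values of the splicing genes was not tested. Scaling also ended calls among the listed genes. With nilotinib, quantile and loess scaling ended those of SART1 (adjusted p = 0.255 and 0.169), ACIN1 (0.0981 and 0.0754), CLK2 (0.0505 and 0.0588), GEMIN7 (0.354 and 0.391) and EDC3 (0.534 and 0.473), and median centring those of CLK3 (0.0749) and RBM25 (0.134). With imatinib, both scalings ended that of ZRSR2 (0.147 and 0.0858), quantile scaling those of XAB2 (0.0593) and CLK3 (0.0627), and median centring those of TXNL4B (0.112) and RBM5 (0.0887). As the mean of their probe sets, MBNL1 was not called with nilotinib or imatinib (0.158 and 0.0917), and CDC40 and RBM3 not with nilotinib (0.104 and 0.0806).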

How the data were processed

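The samples were 12 arrays of K562 RNA, grouped by title into nilotinib, imatinib and DMSO (4 each). The deposited values are MAS5 intensity signals on a linear scale, scaled by the authors to a trimmed mean of about 500 on all arrays (mean over arrays 500.1), per the submitters' processing notes for MAS5, whose version is not given in the sources used here, and from the values for the scale. A single scaling factor per array leaves differences in background or RNA make-up in the values. No 2 arrays held identical values. Precision is limited by the 4 arrays a group.

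Of 22277 probe sets, 62 controls were left out. Genes came from the array's annotation table (19064 probe sets naming 1 gene, 1043 several, 2108 none). Log2(signal + 16) of the brightest probe set per gene, above the 40th percentile, was fitted for 8021 genes with limma 3.58.1 (R 4.3.3), 1 mean per group over all arrays, a variance trend and Benjamini-Hochberg adjustment within each comparison. The fit was tested on simulated data. Figures used matplotlib 3.10.9 and pandas 2.3.3 (Python 3.11.15).

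Members, lists and tests were chosen with earlier results of these data known. Named were, per comparison and direction, up to 8 called genes with the largest change whose arrays did not overlap, a set picked from knowledge of the pathway, up to 2 genes per list and direction, and MYC; HNRNPUL2, LSM3, LSM5, LSM6, LSM14A, SNRPA, SNRPC, SNRPD2, SNRPB2, PRPF39, SRSF10, HNRNPDL, HNRNPA0, HNRNPF, HNRNPH3, SF3B5, SRSF8, HNRNPM, HNRNPD and HNRNPA3 were added after their values were seen. Lists covered U2 auxiliary factors, tri-snRNP partners, the Prp19 complex, exon junction and SR-related proteins, SR kinases, snRNP assembly, minor spliceosome partners, other regulators and decapping partners. Alternatives were 26 settings, among them other pseudocounts, filters, scalings, probe set rules and 1 array left out. A minimum log2 change of 1 on the main fit was also among them. Coordinates and promoter sequences are RefSeq's on GRCh38.p14, with CCGGAAG and 4 other motifs searched on both strands of 300-base windows.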

Additional observations from a re-analysis of the deposited data

Results flagged for a closer look

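Of 168 groups of 4 arrays examined, 1 for each condition of 53 splicing genes and of 3 measures of the whole array, 8 held an array far from the others, where chance gives about 1 in 20. SRSF7 read 2698 on imatinib array 7, below the 3524 to 3686 of the other imatinib arrays, and HNRNPM read 1931 on imatinib array 5, below the others. On DMSO array 10, SNRPB at 2886 and SRSF8 at 2171 were below their other DMSO arrays, and SNRPD1 at 8550.1 was above its others. Above the other nilotinib arrays were LSM6 (1632) and HNRNPH3 (2588) on nilotinib array 1 and SNRPD2 (9644) on nilotinib array 3. SNRNP25 differed between nilotinib and imatinib by -0.62 on the log2 scale, having been called in opposite directions against DMSO.

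The 21 probe sets that name a splicing gene with others entered no test. Nilotinib arrays lay wholly above DMSO arrays in 4 of them (19%) and wholly below in 5 (23.8%), where 29.8% and 20.9% of all genes did so. The 5 lower were 3 of SRSF2, at -0.89, -0.51 and -0.52 on the log2 scale, and 2 of HNRNPA3 with HNRNPA3P1, at -0.87 and -0.67. One naming HNRNPA1 with its pseudogene HNRNPA1P10 averaged 25519 with nilotinib, 24331 with imatinib and 21941 with DMSO, 0.22 higher with nilotinib than with DMSO on the log2 scale. Its imatinib and DMSO arrays overlapped. SNRPN is an Sm-type protein gene of the imprinted region that also yields SNURF. A probe set naming both read 44.4 ± 26.3, 12.3 ± 6.03 and 6.80 ± 3.53 in the same order of groups (SD, n = 4 each), 1.32 higher with nilotinib. A brighter one naming both read 235 ± 49.0, 155 ± 40.6 and 173 ± 51.2, and its groups overlapped in every pairing. Over DMSO it was at 0.43 with nilotinib and -0.14 with imatinib. On probe sets shared by SNRPN and its small nucleolar RNA cluster, the signals were 116 ± 39.0, 76.1 ± 30.2 and 41.4 ± 24.0 (1.27 higher with nilotinib) and 9.98 ± 5.95, 12.3 ± 10.3 and 1.42 ± 2.20 (0.56 higher). Another of these probe sets read 41.3 ± 30.6, 15.8 ± 10.7 and 12.4 ± 8.95 (0.90 higher), with overlap in every pairing of groups. The median signal of bacterial control probe sets was 18.2 ± 5.35, 12.2 ± 4.54 and 7.06 ± 1.31 in the same order of groups (SD, n = 4 each). Several SNRPN readings lie near that background, which was itself higher with nilotinib, so these differences do not show a change of SNRPN RNA. All SNRPN signals are dim, and their cause was not tested.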

How the results depend on the processing

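No paired analysis was possible because the groups share no replicate numbers (arrays 1 to 4, 5 to 8 and 9 to 12). Across 26 alternative settings, values of named genes kept direction and side of the threshold in 6216 cases, lost a call in 506, gained one in 125 and turned in 38. The counts and medians of splicing genes moved by over 1.5 times, or beyond the arrays' spread, in 37 cases, and those of the lists in 52. These totals include a minimum log2 change of 1, a stricter threshold on the main fit, where calls can only be lost. Lists are counted in either direction, and the cause was not tested where no value shows it.

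Cyclic loess gave splicing gene medians of -0.22 (nilotinib over DMSO) and -0.13 with 13 lower (nilotinib over imatinib), and 1 minor spliceosome partner with nilotinib. Quantile normalization gave nilotinib 10 higher and a median of -0.20, imatinib 11 higher, and nilotinib over imatinib 2 higher, 15 lower and a median of -0.14. It left 1 minor partner with nilotinib and 4 U2 auxiliary factors with imatinib. With nilotinib it turned SF3A1 to 0.29 and HNRNPD to 0.16, both called higher (adjusted p = 0.0251 and 0.0484). Each scaling chose the brightest probe set of a gene anew. Median centring gave nilotinib 0 higher and a median of -0.85, imatinib 3 higher, 43 lower and -0.35, and nilotinib over imatinib 0 higher, 59 lower and -0.50. It called 12 Prp19-complex, 10 assembly, 1 minor and 4 decapping genes with nilotinib, and 5 tri-snRNP partners, 7 Prp19-complex and 8 assembly genes with imatinib. It turned, with nilotinib, SRSF11 to -0.062, HNRNPA1 to -0.079, SRSF5 to -0.12, HNRNPL to -0.15, SF3B1 to -0.38, HNRNPK to -0.43, TXNL4B to -0.12, SART1 to -0.25, CDC40 to -0.15, LSM6 to -0.49 and ACIN1 to -0.023, and, for nilotinib over imatinib, SF3B1 to -0.060 and TIA1 to -0.011.

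Averaging all of a gene's probe sets, those below the filter included, gave a nilotinib median of -0.25 and 0 higher for nilotinib over imatinib. It called 3 Prp19-complex genes and 13 other regulators with nilotinib, and 4 U2 auxiliary and 1 decapping gene with imatinib. It turned SF1 to 0.089, SRSF8 to 0.080 and HNRNPM to 0.14 with nilotinib. With imatinib it turned HNRNPM to 0.22, SF3B1 to 0.29 (called higher), SF1 to 0.19 and BUD31 to 0.064. Between the drugs it turned SRSF5 to 0.056 and RBM3 to 0.15. Without probe sets of suffix _x_at or _s_at, 42 of 71 splicing genes could be tested, and 24, 14 and 11 were lower in the 3 comparisons. The lists then gave 5 U2 auxiliary, 2 tri-snRNP, 3 exon junction, 0 kinase and 11 other regulator calls with nilotinib. With imatinib they gave 1 tri-snRNP, 4 exon junction, 0 kinase and 7 other regulator calls. Only 4952 genes could be tested in this setting, so a missing call on a list can mean that no probe set was left. Turned values were SF3A1 0.25, SF1 1.03, SFPQ 0.44, HNRNPM 0.79, HNRNPD 1.16 and RBM3 0.31 with nilotinib, SRSF11 -0.031, SF1 0.83, HNRNPM 0.70 and SFPQ 0.10 with imatinib, and SF1 0.20, SFPQ 0.35, HNRNPD 0.51 and RBM3 0.58 between the drugs.

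Called changes of at least 1 on the log2 scale, fewer by construction, were 0 higher and 9 lower with nilotinib, 0 and 2 with imatinib and 0 and 0 between the drugs. The lists then gave 1 U2 auxiliary, 0 tri-snRNP, 1 Prp19-complex, 3 exon junction, 2 kinase, 3 assembly, 0 minor, 1 other and 1 decapping gene with nilotinib, and 0, 0, 0, 1, 0, 0, 0 and 0 for the first 8 with imatinib. No variance trend gave 15 lower and 0 higher between the drugs, no filter 0 higher there, and the arrays of low actin ratio 15 lower there. The decapping list had 1 call with imatinib under array weights or no trend, and 0 with nilotinib under the 60th percentile filter, where minor partners had 1. Leaving out 1 array at a time gave 39 to 43 lower with nilotinib, 21 to 28 with imatinib and 19 to 26 between the drugs, with 0 to 1 higher there. The exon junction list ranged from 4 (without DMSO array 9) to 9 (without imatinib array 6) with imatinib, the decapping list from 0 to 1 with imatinib and 1 to 2 with nilotinib, and the minor partners from 1 to 2 with nilotinib. With 4 arrays a group and a median SE of 0.146 on the log2 scale, an uncalled gene is not shown to be unchanged.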
